A study of Mus musculus with 9 samples.

Results

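The enzymes that make, recycle and interconvert nucleotides, with the folate enzymes that hand them carbon units, were followed in 9 mouse lymphomas measured on 1 Affymetrix array each. The genes were a fixed list of 35: 4 for pyrimidine synthesis, 7 for the path to inosine monophosphate (IMP), 4 for the AMP and GMP branches, 5 for purine salvage and deamination, 8 for deoxynucleotides and thymidylate, 2 nucleoside diphosphate kinases and 5 for folate metabolism. Each gene was represented by the probe set with the highest mean log2 value among those annotated to it alone. Of the 35, 34 had such a probe set, and all of these also passed the filter on low values, a log2 value over 4 in at least 4 lymphomas; they are part of 10172 tested genes out of 18193. Impdh2 had no probe set annotated to it alone and is not analysed here.

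All 9 lymphomas arose in mice carrying Eμ-Myc, a transgene that expresses Myc from the enhancer of the immunoglobulin heavy chain, active in B lineage cells. In 4 of them (Eμ-Myc replicates 1 to 4) this was the only transgene named, and 5 (replicates 1 to 5, called double-transgenic here) also carried Eμ-TTP-1, named for tristetraprolin (gene Zfp36), which binds AU-rich mRNAs and promotes their decay. The strain background was 94% C57BL/6 in every sample, and the labels call the samples biological replicates without giving age, sex, time to tumour or the make-up of the transgenes. The comparison asks whether adding the TTP transgene goes with other mRNA levels in the tumours. Values are log2 GCRMA intensities, differences are double-transgenic minus Eμ-Myc, and levels of different genes are not compared because probe sets differ in their response.

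Array medians lay between intensities of 12.2 and 13.4, and the log2 values of any pair of arrays, across probe sets, correlated at 0.959 to 0.990. Of 8 B lineage markers named on the array, 8 passed the filter, and their mean was 11.96 to 12.75 among Eμ-Myc tumours and 11.77 to 12.57 among double-transgenic ones. Single markers were less even: Cd79a lay at 13.24 to 14.06, Ms4a1 at 10.08 to 14.47 and Cd22 at 6.99 to 12.93, lowest in double-transgenic replicate 2. Ebf1 did not overlap between groups (difference 0.80, 95% interval 0.29 to 1.31; limma adjusted p = 0.845). The mean of 6 granulocyte genes was 5.16, 9.43, 10.004 and 8.88 in Eμ-Myc replicates 1 to 4 and 4.84, 10.56, 3.85, 5.75 and 4.16 in double-transgenic replicates 1 to 5. It was thus low in 4 of 5 double-transgenic tumours and in 1 of 4 Eμ-Myc tumours, with S100a8 differing by -2.68 (-6.03 to 0.66; limma adjusted p = 0.860), and its part in the differences of the enzymes was not tested. The mean of 8 macrophage genes was 9.65 to 10.85 among Eμ-Myc tumours and 8.47 to 10.26 among double-transgenic ones, that of 8 stromal and endothelial genes 9.30 to 11.18 and 8.46 to 11.04, and that of 4 T cell genes 4.62 to 6.35 and 4.74 to 5.82. T cell markers differed among themselves: Cd3e stayed at 2.75 to 3.43, Cd3g ran from 1.15 to 6.38 and Bcl11b from 2.19 to 11.12, and Cd3d was highest in Eμ-Myc replicate 4 at 8.02. Of the erythroid genes, 0 of 4 passed the filter. Zfp36 stood at 10.57 ± 0.41 (SD, n = 4) without and 10.55 ± 0.38 (SD, n = 5) with the TTP transgene, and Myc at 13.92 ± 0.26 and 14.02 ± 0.15. In bulk tumours, fewer cells of a type and less RNA per cell cannot be told apart.

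Purines are built stepwise on phosphoribosyl pyrophosphate (PRPP) up to IMP, which branches to AMP and GMP, whereas the pyrimidine ring is closed first and then joined to PRPP to give UMP. Folate-bound carbon units from serine supply both purine synthesis and the methyl group of thymidylate, ribonucleotide reductase turns ribonucleotides into deoxynucleotides, and salvage enzymes recapture free bases and nucleosides. Many of these genes are textbook targets of MYC, and several deoxynucleotide enzymes are known to be made mainly in S phase.

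No nucleotide or folate enzyme passed the test between the genotypes. Of the 34 tested, 0 had a limma adjusted p under 0.05, where the background was 0%: 0 of all 10172 genes passed, and 577 had an unadjusted limma p under 0.05. Without Eμ-Myc replicate 3, 8 genes passed, and 1 without Eμ-Myc replicate 4, of which 0 were members. The lowest adjusted p of a member was 0.845. The double-transgenic mean was above the Eμ-Myc mean for 20 members and under it for 14, so 58.8% were higher against 58.9% of all genes, and their median log2 difference was 0.04 against 0.05 over all genes. An unadjusted limma p under 0.05 was seen for 2 members, Ada and Prps1, or 5.88% of them, against 5.67% of all genes; both were higher in double-transgenic lymphomas, as were 3.87% of all genes, with 0 members lower beside 1.8%. The same 2 members were the ones whose groups did not overlap, 5.88% against a background of 1.64%. In precision, 27 of 34 members had a 95% interval of the difference inside 1 log2 unit on either side of 0, and 13 had one inside 0.5. Of all 10172 genes, 6698 and 2667 did so. Of the 5964 genes with a mean log2 value over 9, 4825 and 2159 did so.

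**Figure D1:**
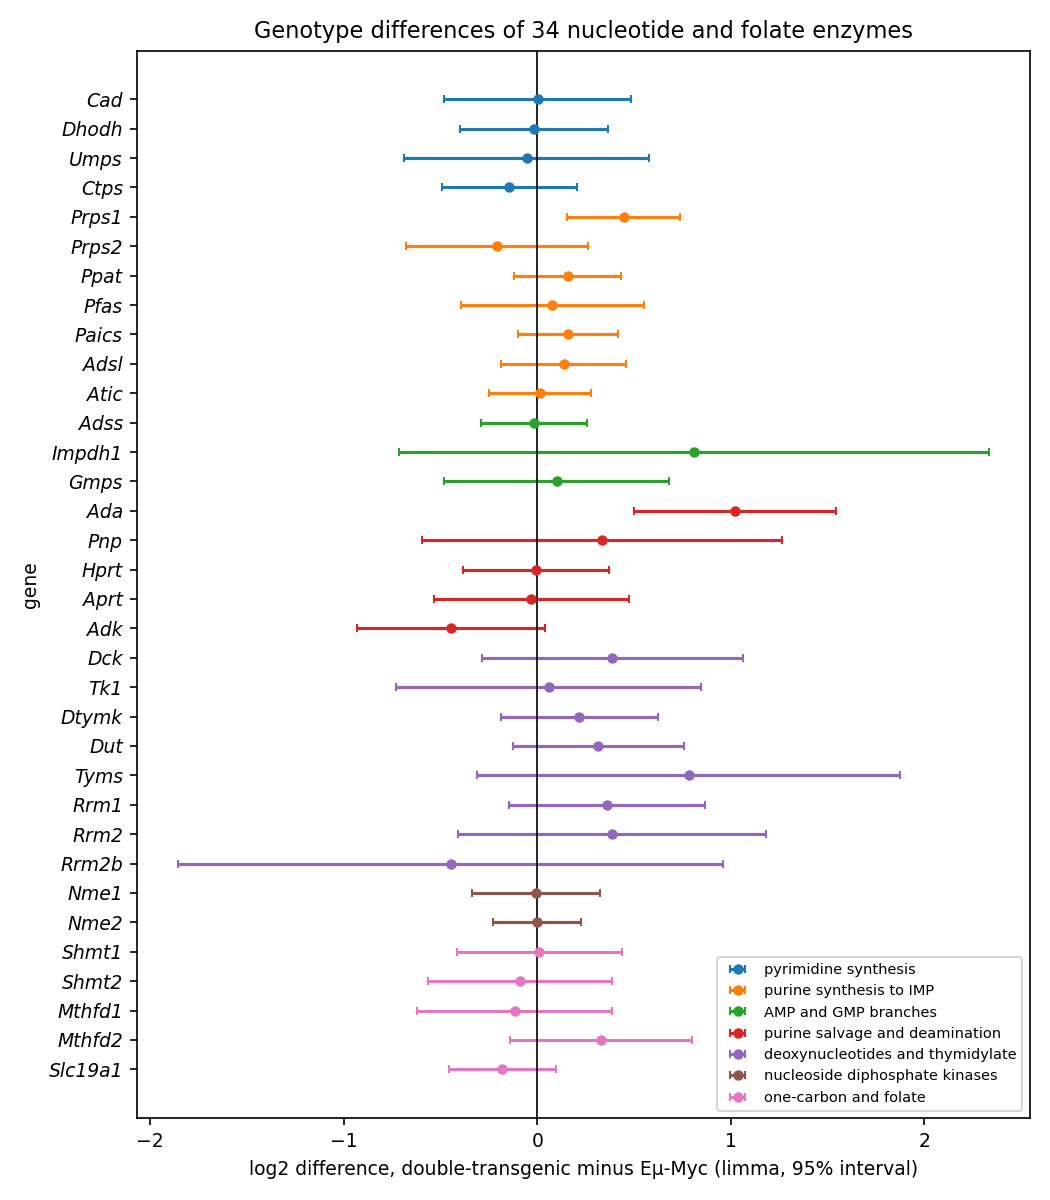
Log2 difference between double-transgenic (n = 5) and Eμ-Myc (n = 4) lymphomas for 34 genes, with points for the limma estimate, bars for its 95% interval and colours for the role. The intervals of Ada and Prps1 lie above 0 and those of the other 32 genes include 0.

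The members differed widely in how much they varied among tumours. Their SD over the 9 lymphomas ran from 0.079 for Nme2, lower than in all but 1.27% of tested genes, to 1.12 for Impdh1, with a median of 0.31 beside 0.36 over all genes. The probe sets of the members gave a higher signal than most, with a median of 12.25 beside 9.55. This is given only as a basis for the SD and is not read as a level of the mRNAs. Among the 5964 tested genes with a mean log2 value over 9, the median SD was 0.28, below that of the members. By mean value Nme2 lay above 99.6% of tested genes and Impdh1 above 19.4%. The part of signal level in their SD was not tested. Genes of purine synthesis to IMP had a median SD of 0.19 and those of deoxynucleotide supply one of 0.50. Some tumours stood out across genes: Eμ-Myc replicate 1 held the lowest value of 10 of the 34 members and Eμ-Myc replicate 3 that of 8, where 19.6% and 16.9% of all genes were lowest in these arrays. Double-transgenic replicate 1 held the highest value of 10 members, against 9.19% of all genes.

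**Figure D2:**
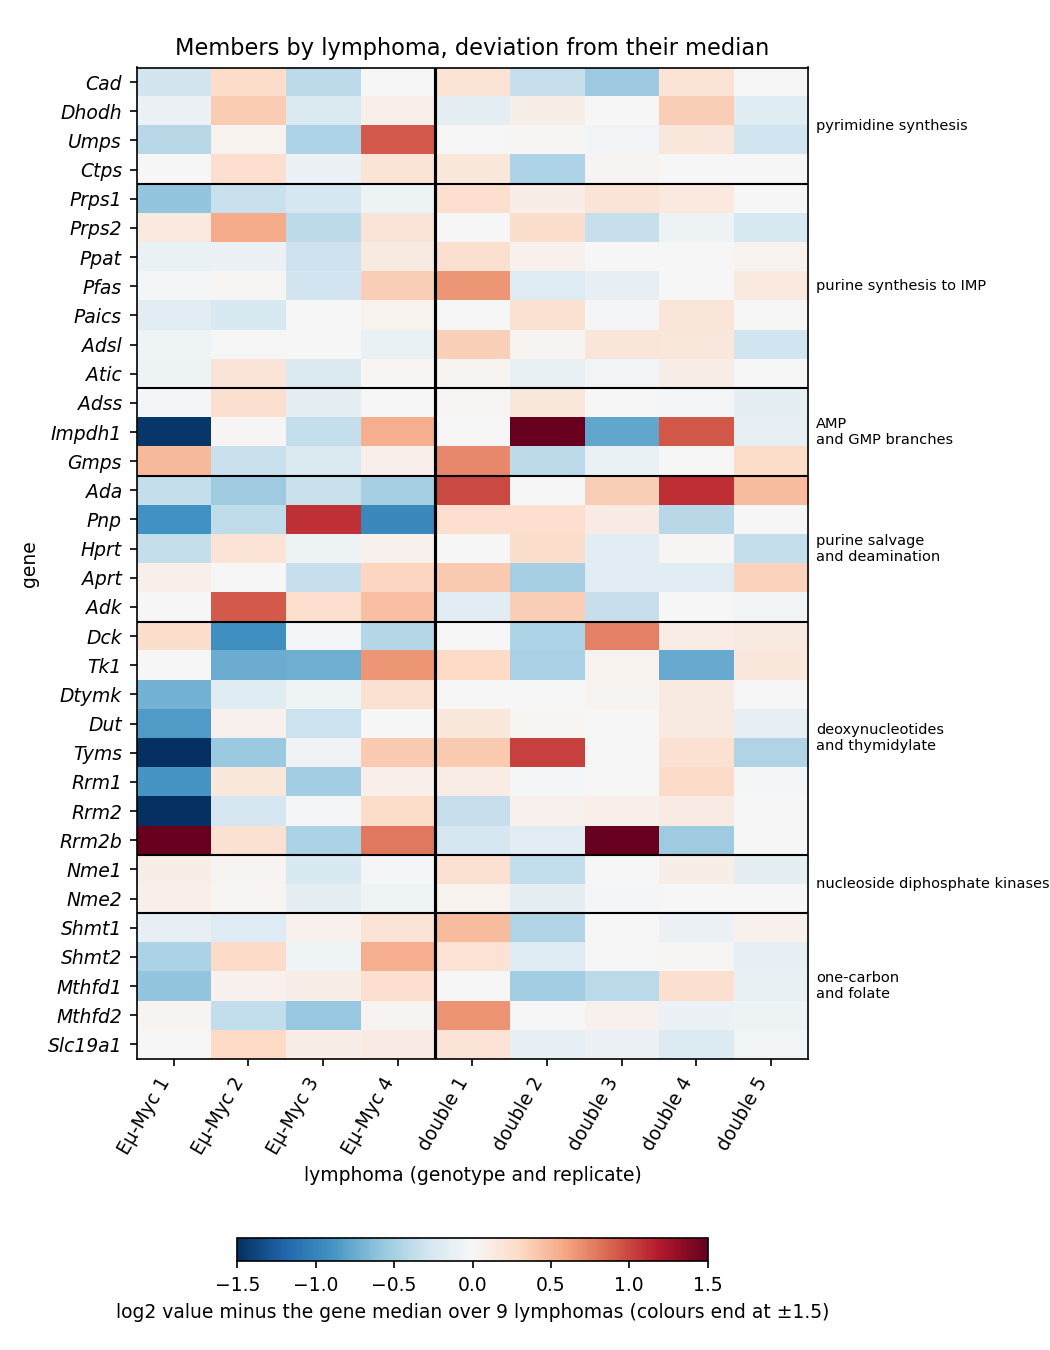
Deviation of each gene (rows, grouped by role) from its own median over 9 lymphomas (columns, Eμ-Myc left of the vertical line), in log2 units with colours ending at 1.5 on either side. Most rows of purine synthesis are pale, whereas Rrm2, Tyms, Dut and Rrm1 are lowest and Rrm2b highest in Eμ-Myc replicate 1.

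Pyrimidine synthesis was not shown to shift between genotypes. Its 4 genes, 1 higher and 3 lower, had a median difference of -0.04, with 0 past the threshold. Cad, the enzyme of the first steps of the pathway, read 11.80, 12.35, 11.68 and 12.07 in Eμ-Myc replicates 1 to 4 and 12.28, 11.73, 11.52, 12.28 and 12.08 in double-transgenic replicates 1 to 5. These ranges overlap throughout, and the difference of 0.003 had a 95% interval of -0.48 to 0.49. Dhodh, the mitochondrial enzyme that oxidises dihydroorotate, differed by -0.02 (-0.40 to 0.36). Ctps, which makes CTP from UTP, varied least of the group (SD 0.21) and differed by -0.14 (-0.49 to 0.20).

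Umps, which converts orotate to UMP, varied most in this group. It read 10.13, 10.59, 10.08 and 11.46 in the Eμ-Myc tumours and 10.54, 10.56, 10.50, 10.71 and 10.24 in the double-transgenic ones. Eμ-Myc replicate 4 stood above all the others, and the other tumours lay between 10.08 and 10.71. The difference was -0.05 (-0.69 to 0.58), and 0.25 without Eμ-Myc replicate 4. A second probe set of Umps followed the first (r = 0.93 over the 9 lymphomas, a description) with a difference of 0.14, so its small difference between genotypes has no settled sign.

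The 7 genes of purine synthesis to IMP split into 6 with a higher and 1 with a lower double-transgenic mean, where 58.9% of all genes were higher. Their median difference was 0.14, with 0 past the threshold. Prps1, which makes PRPP, the sugar phosphate on which purines are assembled, had the clearest separation. It read 11.65, 11.92, 11.998 and 12.17 in Eμ-Myc and 12.50, 12.34, 12.43, 12.39 and 12.24 in double-transgenic lymphomas. The lowest double-transgenic tumour lay just above the highest Eμ-Myc tumour, 12.24 against 12.17. The difference was 0.45 (SE 0.13, 95% interval 0.15 to 0.74, a 1.36-fold level; exact permutation p = 0.00794, two-sided, the smallest that 126 splits can give), but the limma adjusted p over all genes was 0.845.

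Its isoenzyme Prps2 had the opposite sign in the probe set used. Prps2 read 12.48, 12.88, 11.93 and 12.52 in Eμ-Myc and 12.33, 12.59, 11.98, 12.25 and 12.08 in double-transgenic lymphomas, with ranges that overlap, and differed by -0.21 (-0.68 to 0.26). Other Prps2 probe sets differed by 0.04 and -0.21 and followed the first at r = 0.62 and 0.85, so its sign is not settled. Prps1 and Prps2 both lie on the X chromosome. Across the 9 lymphomas they were not shown to be related (Pearson r = -0.34, exact permutation p = 0.377, adjusted over 9 pairs 0.651; Spearman rho = -0.30, p = 0.437, adjusted 0.521), and r was 0.24 without Eμ-Myc replicates 1 and 2.

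In the probe sets used, most of the enzymes that assemble the ring had an SD under the median of all members. Gart (SD 0.67) was an exception among the other pathway genes. A second probe set of Ppat had an SD of 0.309 and one of Atic 0.381, beside that median of 0.307. The other Paics probe sets had 0.24 and 0.21. Ppat, the amidotransferase of the committed step, read 12.02, 12.03, 11.81 and 12.25 without and 12.36, 12.18, 12.12, 12.11 and 12.17 with the TTP transgene and differed by 0.16 (-0.12 to 0.43). Paics, which carries out a carboxylation and the ligation after it, read 14.19, 14.12, 14.35 and 14.40 without and 14.34, 14.57, 14.33, 14.52 and 14.35 with the TTP transgene and differed by 0.16 (-0.10 to 0.42). Whole ranges of 0.55 and 0.45 log2 units over 9 tumours correspond to 1.46-fold and 1.37-fold. Ppat and Paics are adjacent genes on opposite strands with starts that lie close together, yet their values were not shown to be related across the lymphomas (r = 0.30, exact permutation p = 0.434, adjusted 0.651; rho = 0.38, p = 0.318, adjusted 0.521; r = 0.67 without Eμ-Myc replicate 3 and double-transgenic replicate 1). The sign of this relation depended on the probe sets. A second Ppat probe set had a difference of -0.23 and followed the first poorly (r = 0.11), as did a Paics probe set (-0.13, r = 0.08), while another Paics probe set followed its first (0.27, r = 0.94).

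Pfas, which adds an amide nitrogen on the path, differed by 0.08 (-0.39 to 0.55) and was highest in double-transgenic replicate 1 at 12.73, against 11.78 to 12.44 in the other tumours. Adsl, adenylosuccinate lyase, differed by 0.14 (-0.19 to 0.46). Atic, which closes the ring to IMP, had the lowest SD of the group, 0.12, and its 9 values lay between 12.83 and 13.24. Its difference of 0.02 had a narrow 95% interval of -0.25 to 0.28, which corresponds to 0.843-fold to 1.21-fold. Its second probe set had an SD of 0.38 and did not follow the first (r = 0.02), so the low SD belongs to the probe set used.

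In the AMP and GMP branches, 2 of 3 measured genes were higher, the median difference was 0.10 and 0 passed. Adss, adenylosuccinate synthetase at the entry to AMP, also had a narrow range, 12.75 to 13.15, with a difference of -0.02 (-0.29 to 0.26). Impdh1, an isoenzyme of the rate-limiting step to GMP, varied most of all 34 members. It read 5.51, 6.99, 6.62 and 7.52 in Eμ-Myc and 6.97, 9.44, 6.19, 7.91 and 6.84 in double-transgenic lymphomas. The span from Eμ-Myc replicate 1 to double-transgenic replicate 2 was 15.2-fold, with the groups overlapping, and the difference of 0.81 had a wide interval (-0.71 to 2.33). Without double-transgenic replicate 2 it was 0.32, and without Eμ-Myc replicate 1 it was 0.43. Double-transgenic replicate 2 also had the highest mean of the granulocyte genes, 10.56, but Eμ-Myc replicate 3, with 10.004 there, read 6.62 for Impdh1; the part of other cells in this value was not tested. Gmps, GMP synthetase, read 12.91, 12.09, 12.20 and 12.49 without and 13.15, 12.03, 12.32, 12.42 and 12.69 with the TTP transgene, with a difference of 0.10 (-0.48 to 0.68). Its 2 other probe sets had larger differences, 0.88 and 0.65, and followed the first at r = 0.65 and 0.70, so the size of the Gmps difference is not settled; with the mean of probe sets it was 0.54, which is then also the median of the branches.

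Purine salvage and deamination held the largest difference of all members. Ada, adenosine deaminase, which turns adenosine and deoxyadenosine into their inosine forms and whose loss is toxic to lymphocytes, read 9.36, 9.18, 9.38 and 9.22 in Eμ-Myc lymphomas. In double-transgenic lymphomas it read 10.71, 9.72, 10.08, 10.82 and 10.20. The Eμ-Myc values lay close together, and each of the 5 double-transgenic values was above the highest of them. The difference was 1.02 (SE 0.23, 95% interval 0.50 to 1.54), a 2.03-fold level with an interval of 1.41-fold to 2.91-fold (exact permutation p = 0.0159, two-sided). The limma adjusted p over all genes was 0.845, and it ran from 0.399 to 0.981 over the alternatives while the difference stayed between 0.89 and 1.17. Ada has a single probe set, so no second measurement of it was at hand.

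The next enzyme of the route, Pnp (purine nucleoside phosphorylase), did not share this pattern. Pnp read 12.08, 12.61, 14.09 and 12.03 in Eμ-Myc and 13.24, 13.24, 13.12, 12.58 and 12.99 in double-transgenic lymphomas. Eμ-Myc replicate 3 was the highest tumour of all and Eμ-Myc replicates 1 and 4 the lowest, so the Eμ-Myc values enclose the others, with a difference of 0.33 (-0.59 to 1.26) that was 0.80 without Eμ-Myc replicate 3, 0.13 without replicate 1 and 0.11 without replicate 4. The mean of the macrophage genes was also highest in Eμ-Myc replicate 3, 10.85, and its part in the Pnp value was not tested. Ada and Pnp were not shown to be related across the lymphomas (r = 0.19, exact permutation p = 0.626, adjusted 0.729; rho = 0.28, p = 0.463, adjusted 0.521; r = 0.33 without double-transgenic replicates 1 and 4).

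Adk, adenosine kinase, which returns adenosine to AMP and so competes with Ada for its substrate, had the opposite sign to Ada. It read 12.85, 13.77, 13.10 and 13.29 in Eμ-Myc and 12.68, 13.21, 12.49, 12.84 and 12.81 in double-transgenic lymphomas. These ranges overlap, and the difference of -0.44 (SE 0.21, 95% interval -0.93 to 0.04, exact permutation p = 0.0714, two-sided) did not pass (limma adjusted p = 0.858). Without Eμ-Myc replicate 2, the highest tumour, it was -0.27. Its 2 other probe sets that passed the filter had differences of -0.34 and -0.66 and followed the first at r = 0.91 and 0.89. The base-salvage enzymes Hprt, for hypoxanthine and guanine, and Aprt, for adenine, differed by -0.009 (-0.39 to 0.37) and -0.03 (-0.53 to 0.47). Hprt varied least of the salvage genes, at 13.20 to 13.83.

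**Figure D3:**
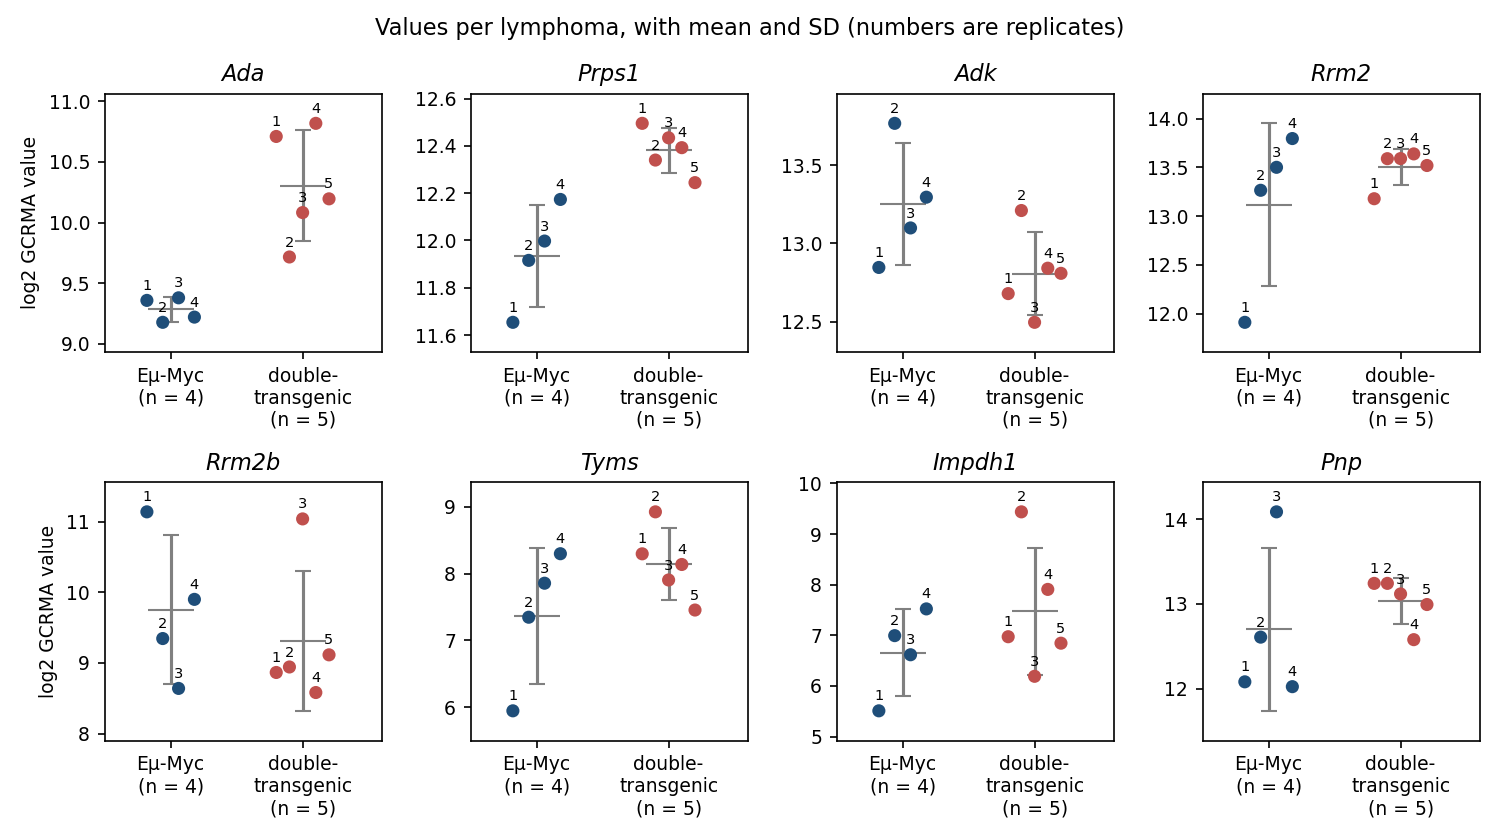
Log2 values of 8 genes in each lymphoma, Eμ-Myc in blue and double-transgenic in red, numbered by replicate, with the group mean and SD in grey. Ada and Prps1 do not overlap between groups, and single tumours carry much of the spread of Rrm2, Tyms, Rrm2b, Impdh1 and Pnp.

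Enzymes of deoxynucleotide supply had higher means in double-transgenic lymphomas in 7 of 8 genes, beside 58.9% of all genes. Their median difference was 0.34, with 0 past the threshold. Eμ-Myc replicate 1 carried much of this: without it the median was 0.13. Ribonucleotide reductase, the enzyme that makes deoxynucleotides, was measured through 3 subunit genes. Rrm1, the large subunit, read 12.24, 13.29, 12.62 and 13.20 without and 13.23, 13.09, 13.13, 13.42 and 13.11 with the TTP transgene, a difference of 0.36 (-0.15 to 0.87) that was 0.16 without Eμ-Myc replicate 1. Rrm2, the small subunit of dividing cells, read 11.91, 13.27, 13.50 and 13.80 without and 13.18, 13.59, 13.59, 13.64 and 13.52 with the TTP transgene, a difference of 0.38 (-0.41 to 1.18) that was -0.02 without Eμ-Myc replicate 1. In that tumour Rrm2 was far under the next lowest value, 11.91 against 13.18, and 3 probe sets of the gene followed each other (r of 0.98 and 0.95 with the first).

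Rrm1 and Rrm2 were not shown to be related across the lymphomas (r = 0.75, exact permutation p = 0.0558, adjusted 0.251; rho = 0.35, p = 0.359, adjusted 0.521), and r was -0.13 without Eμ-Myc replicates 1 and 3.

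Rrm2b, the alternative small subunit known as a p53-inducible gene for repair, ran the other way. It read 11.14, 9.35, 8.64 and 9.90 in Eμ-Myc and 8.86, 8.94, 11.04, 8.58 and 9.11 in double-transgenic lymphomas. One tumour of each group stood above the rest, Eμ-Myc replicate 1 and double-transgenic replicate 3, and the others lay between 8.58 and 9.90. All 4 of its probe sets passed the filter, and the others followed the first at r of 0.96 to 0.98. The difference of -0.45 (-1.85 to 0.96) rested on these tumours: it was 0.01 without Eμ-Myc replicate 1 and -0.88 without double-transgenic replicate 3. Rrm2 and Rrm2b were not shown to be related over all 9 (r = -0.51, exact permutation p = 0.160, adjusted 0.405; rho = -0.13, p = 0.744, adjusted 0.744), and r was 0.19 without Eμ-Myc replicate 1 and double-transgenic replicate 1.

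Thymidylate enzymes were lowest in the same Eμ-Myc tumour. Tyms, thymidylate synthase, read 5.95, 7.35, 7.86 and 8.30 without and 8.30, 8.93, 7.91, 8.14 and 7.46 with the TTP transgene, a difference of 0.78 (-0.31 to 1.87) that was 0.31 without Eμ-Myc replicate 1. Dut, which removes dUTP and yields dUMP for thymidylate, read 12.71, 13.62, 13.23 and 13.56 without and 13.72, 13.59, 13.55, 13.69 and 13.43 with the TTP transgene, a difference of 0.32 (-0.12 to 0.76) and 0.13 without that tumour. Dtymk, thymidylate kinase, varied least of the 8 (SD 0.27); it read 12.43, 12.95, 13.07 and 13.36 without and 13.14, 13.13, 13.17, 13.27 and 13.13 with the TTP transgene, with a difference of 0.22 (-0.19 to 0.62) and of 0.04 without it. In each of the 3 genes Eμ-Myc replicate 1 was the lowest of the 9 tumours.

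The salvage kinases of deoxynucleosides did not share this low point. Tk1, thymidine kinase 1, read 11.02, 10.27, 10.28 and 11.67 in Eμ-Myc and 11.32, 10.53, 11.07, 10.26 and 11.17 in double-transgenic lymphomas, so that Eμ-Myc replicate 1 lay at the median, and the difference was 0.06 (-0.73 to 0.85). Dck, deoxycytidine kinase, read 14.19, 13.004, 13.90 and 13.50 without and 13.93, 13.47, 14.69, 14.04 and 14.06 with the TTP transgene, with Eμ-Myc replicate 1 the second highest and a difference of 0.39 (-0.29 to 1.06) that was 0.17 without Eμ-Myc replicate 2. Tk1 and Tyms were not shown to be related (r = -0.02, exact permutation p = 0.959, adjusted 0.959; rho = 0.28, p = 0.463, adjusted 0.521; r = -0.06 without double-transgenic replicate 4 and Eμ-Myc replicate 2).

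The order of the tumours in these genes was set beside that in 29 replication genes that are not members. The mean of those S phase genes was 11.12 in Eμ-Myc replicate 1 and 11.50 in Eμ-Myc replicate 3, against 11.82 and 12.05 in the other Eμ-Myc tumours and 11.85 to 12.04 in the double-transgenic ones. Dut (r = 0.93), Rrm1 (0.92), Dtymk (0.90), Rrm2 (0.86), Prps1 (0.83) and Tyms (0.82) had unadjusted exact permutation p-values under the threshold, from 0.00688 to 0.0224, and 0 of 34 members passed after adjustment (lowest adjusted p = 0.077; lowest for Spearman 0.109). The share of all tested genes with such an unadjusted p was not computed, so nothing particular to the members is read from this count. By Spearman, rho was 0.88 for Dtymk, 0.83 for Rrm2, 0.80 for Tyms and 0.62 for Prps1 but 0.42 for Dut and 0.40 for Rrm1. The relations of Dut and Rrm1 rested on 2 tumours. Without Eμ-Myc replicates 1 and 3, r was close to 0 (-5.7e-05) for Dut and -0.17 for Rrm1, but 0.76 for Dtymk, 0.74 for Rrm2, 0.65 for Tyms and 0.46 for Prps1, which are described over 7 tumours. With each genotype's mean subtracted, Dut, Rrm1 and Shmt2 passed (r of 0.90, 0.89 and 0.89, permutation over all 9 lymphomas, adjusted p = 0.0393 for each). This permutation mixed the genotypes, whose S phase SD was 0.41 in Eμ-Myc and 0.07 in double-transgenic tumours. Its p is therefore approximate, and these r rest mainly on the Eμ-Myc tumours. Without the subtraction, Shmt2 had r = 0.64, and 0.10 without Eμ-Myc replicates 1 and 3. Each group holds too few tumours for a value of its own.

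**Figure D4:**
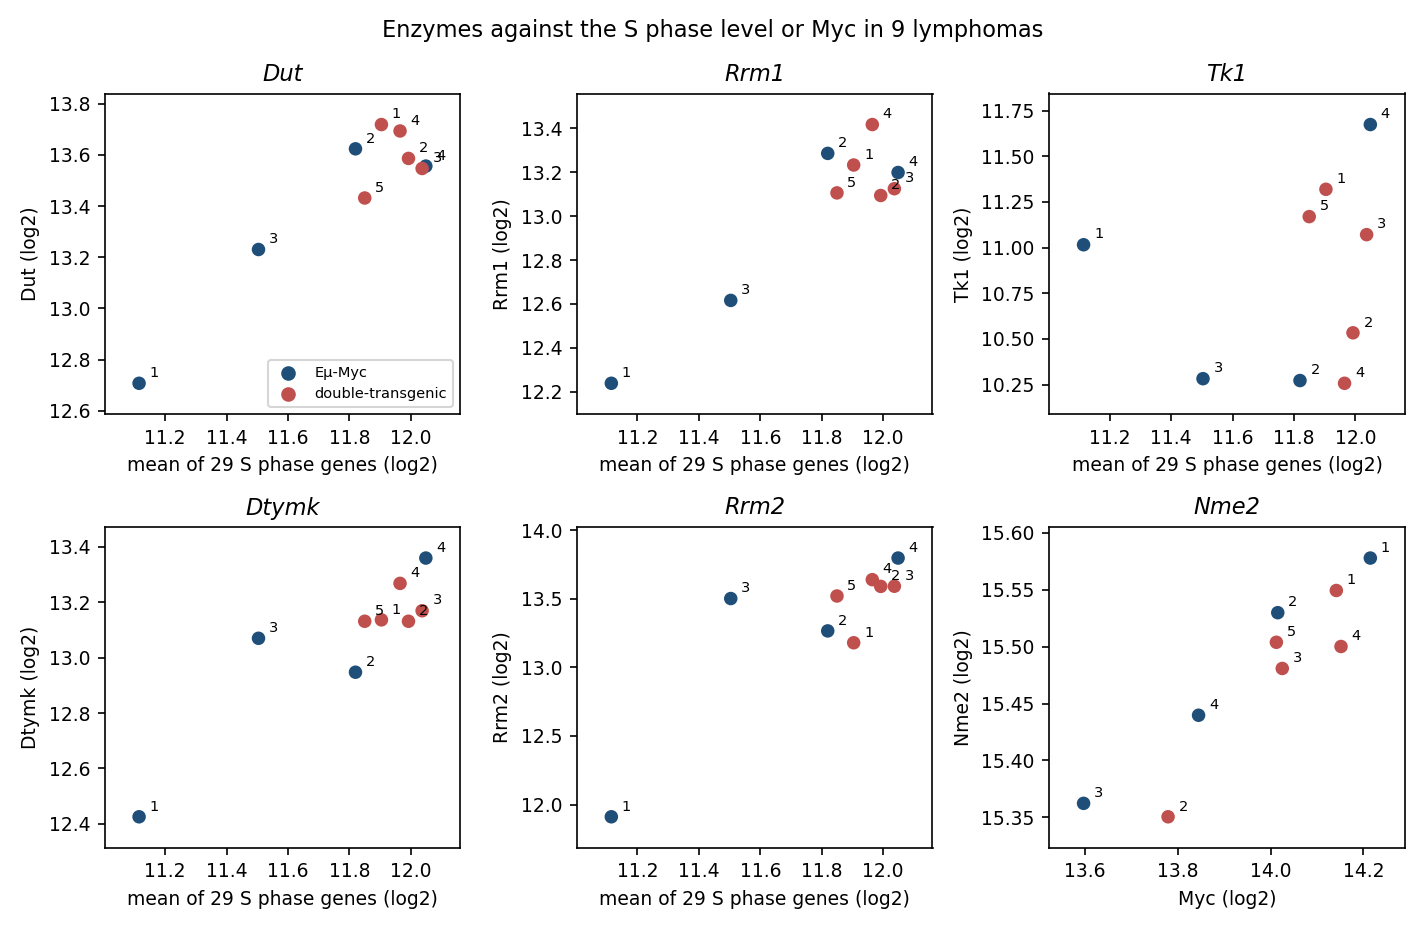
Log2 values of 5 deoxynucleotide enzymes against the mean of 29 S phase genes, and of Nme2 against Myc, in 9 lymphomas (blue Eμ-Myc, red double-transgenic, numbered by replicate). Eμ-Myc replicates 1 and 3 lie apart at the low end for Dut and Rrm1, and Tk1 has r = 0.16.

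Among the nucleoside diphosphate kinases, Nme2 varied least of all 34 members and was the one that passed a test of its relation with Myc. Nme1 and Nme2 make nucleoside triphosphates from diphosphates and differed between genotypes by -0.006 (-0.34 to 0.33) and -5.1e-04 (-0.23 to 0.23). Nme2 read 15.58, 15.53, 15.36 and 15.44 in Eμ-Myc and 15.55, 15.35, 15.48, 15.50 and 15.50 in double-transgenic lymphomas, a whole range of 1.17-fold. Whether the array narrows differences at so high a signal was not tested. Myc read 14.21, 14.02, 13.60 and 13.84 without and 14.14, 13.78, 14.03, 14.15 and 14.01 with the TTP transgene, and the tumours with the lowest Myc, Eμ-Myc replicate 3 and double-transgenic replicate 2, also had the lowest Nme2. Of 34 members set against Myc, Nme2 was the single one that passed (r = 0.92, exact permutation p = 4.93e-04, adjusted 0.0168), while its Spearman rho of 0.80 did not (adjusted exact permutation p = 0.235). Without the 2 lymphomas farthest from the median of Myc, Eμ-Myc replicate 3 and double-transgenic replicate 2, r was 0.84. Nme1, at 13.90, 13.85, 13.58 and 13.79 without and 14.04, 13.44, 13.81, 13.90 and 13.68 with the TTP transgene, had r = 0.80 (exact permutation p = 0.00900, adjusted 0.153) and rho = 0.90 (adjusted exact permutation p = 0.0690), with r = 0.61 without the same lymphomas. A second Nme1 probe set followed the first at r = 0.68. It was lowest in double-transgenic replicate 2 (10.85) but read 11.20 in Eμ-Myc replicate 3, beside its highest value of 11.26 in Eμ-Myc replicate 2. The relation of this second probe set with Myc was not tested. For the other 32 members r with Myc lay between -0.58 and 0.63 with adjusted exact permutation p-values of 0.612 or more. How many of all tested genes are related to Myc as closely as Nme2 was not computed.

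Nme1 and Nme2 passed as related to each other by Pearson but not by Spearman (r = 0.87, exact permutation p = 0.00259, adjusted over 9 pairs 0.0233; rho = 0.85, p = 0.00607, adjusted 0.0547). Without Eμ-Myc replicate 3 and double-transgenic replicate 2 r was 0.55, so the relation leans on those tumours. They are close paralogues and neighbours on chromosome 11, and whether their probes share signal was not tested.

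MYC with its partner MAX binds the palindrome CACGTG, the canonical E-box. RefSeq promoters, 250 bases before to 50 after a start (GRCm38.p6), were listed for 32 of the 35 members, the exceptions being Dhodh, Pfas and Rrm2b. CACGTG, which reads the same on both strands, was found for 6 of the 32 genes (Atic, Dtymk, Impdh2, Nme1, Paics and Tyms), or 18.8%, beside 8.09% of the 27025 genes of the promoter table and 12.3% of 8331 genes tested on the array. A match describes the letters and shows no binding. The stretches around it are shown for the genes named with Myc or with S phase above. Atic and Paics, of lowest SD on the path to IMP in the probe sets used, are shown as well. All run in the direction of the gene, with the motif in capitals. Minus positions count the first base of the motif back from the start: -18 and -29 for the 2 starts of Nme1, -203 for Paics, -7 for Atic, -61 for Tyms and -148 for Dtymk.
Atic (chr1:71557112-71557191, plus strand): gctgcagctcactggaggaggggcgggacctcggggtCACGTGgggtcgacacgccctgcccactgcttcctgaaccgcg
Dtymk (chr1:93802040-93802119, minus strand): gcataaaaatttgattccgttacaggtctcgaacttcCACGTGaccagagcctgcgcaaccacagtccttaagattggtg
Nme1 (chr11:93968012-93968091, minus strand): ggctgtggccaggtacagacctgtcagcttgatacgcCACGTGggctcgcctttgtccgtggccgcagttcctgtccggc
Nme1 (chr11:93968248-93968327, minus strand): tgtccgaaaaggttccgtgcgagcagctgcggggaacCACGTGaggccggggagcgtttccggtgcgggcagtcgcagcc
Paics (chr5:76951062-76951141, plus strand): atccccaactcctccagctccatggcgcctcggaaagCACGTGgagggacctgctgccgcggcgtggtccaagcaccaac
Tyms (chr5:30073644-30073723, minus strand): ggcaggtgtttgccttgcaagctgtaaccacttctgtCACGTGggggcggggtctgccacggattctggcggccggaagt
No CACGTG was found in the windows of Nme2, which had the highest r with Myc, nor in those of Rrm1, Rrm2 or Dut. In the 6 genes with a match, r with Myc ranged in sign: it was 0.60 for Atic and 0.80 for Nme1 but -0.30 for Paics, -0.36 for Dtymk and -0.47 for Tyms, with Impdh2 not measured. Without Eμ-Myc replicate 3 and double-transgenic replicate 2, r was -0.15 for Atic and 0.61 for Nme1. It was then -0.10 for Paics, -0.61 for Dtymk and -0.48 for Tyms.

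The one-carbon group, 2 higher and 3 lower, had a median difference of -0.09 and 0 past the threshold. Shmt2 and Shmt1, the mitochondrial and cytosolic enzymes that take the carbon unit from serine, differed by -0.09 (-0.56 to 0.38) and 0.01 (-0.41 to 0.44). Other Shmt1 probe sets differed by 0.13, 0.26 and 0.38 and followed the first at r = 0.65, 0.46 and 0.80. The size of the Shmt1 difference is therefore not settled. Shmt2 read 12.80, 13.56, 13.21 and 13.82 without and 13.49, 13.08, 13.27, 13.29 and 13.15 with the TTP transgene, lowest in Eμ-Myc replicate 1, and Shmt1 read 11.33, 11.26, 11.52 and 11.65 without and 11.93, 11.000, 11.45, 11.37 and 11.51 with the TTP transgene, highest in double-transgenic replicate 1. The pair was not shown to be related (r = 0.48, exact permutation p = 0.180, adjusted 0.405; rho = 0.43, p = 0.250, adjusted 0.521; r = 0.40 without double-transgenic replicates 1 and 2).

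Mthfd2, the mitochondrial dehydrogenase that is low in most resting tissues, varied most in this group. It read 11.67, 11.27, 11.07 and 11.68 in Eμ-Myc and 12.31, 11.64, 11.70, 11.55 and 11.56 in double-transgenic lymphomas. Double-transgenic replicate 1 was the highest tumour and the groups overlapped, with a difference of 0.33 (-0.14 to 0.80) and of 0.19 without that tumour. Its cytosolic counterpart Mthfd1 differed by -0.12 (-0.62 to 0.39), and the pair was not shown to be related (r = -0.18, exact permutation p = 0.648, adjusted 0.729; rho = -0.30, p = 0.437, adjusted 0.521; r = -0.19 without Eμ-Myc replicate 1 and double-transgenic replicate 2). Slc19a1, the reduced folate carrier, varied least, at 10.52 to 11.02, and differed by -0.18 (-0.46 to 0.10).

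Each member was set beside the other genes of its chromosome. A chromosome counted as shifted in a tumour where the median deviation of its genes from their own medians was 0.15 or more in either direction. This gave 12 combinations of a member and a tumour over 8 members, and the member deviated in the direction of its chromosome in 11 of the 12, or 91.7%. Of the other tested genes of those chromosomes 64.1% to 85.0% did so, on average 73.9%, and 5 of the 12 combinations are Gmps, so nothing particular to the members is read from this count. Rrm2 in Eμ-Myc replicate 3 was the exception (-0.02 beside 0.35 for chromosome 12). Umps, on chromosome 16, was 0.92 above its median in Eμ-Myc replicate 4, where the other genes of the chromosome were 0.50 above theirs and its 40 nearest tested neighbours 0.71. Gmps, on chromosome 3, was 0.73, 0.49 and 0.27 above its median in double-transgenic replicate 1, Eμ-Myc replicate 1 and double-transgenic replicate 5, where the chromosome stood 0.25, 0.25 and 0.26 above. In Eμ-Myc replicates 2 and 3, with chromosome 3 at -0.18 and -0.21, Gmps was at -0.34 and -0.22. Double-transgenic replicate 2 had the lowest Gmps (-0.39), with chromosome 3 at -0.07, short of the limit of 0.15. The 40 nearest tested neighbours of Gmps stood at 0 in that tumour and at 0.10 in double-transgenic replicate 1. Pnp, on chromosome 14, deviated by 1.09 in Eμ-Myc replicate 3, far more than the 0.18 of its chromosome, and Rrm2b, on chromosome 15, by 1.93 in double-transgenic replicate 3 beside 0.21. Rrm2b also deviated by 2.03 in Eμ-Myc replicate 1, where its neighbours stood at -0.05. Ada had neighbours between -0.09 and 0.09 in all 9 tumours.

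**Figure D5:**
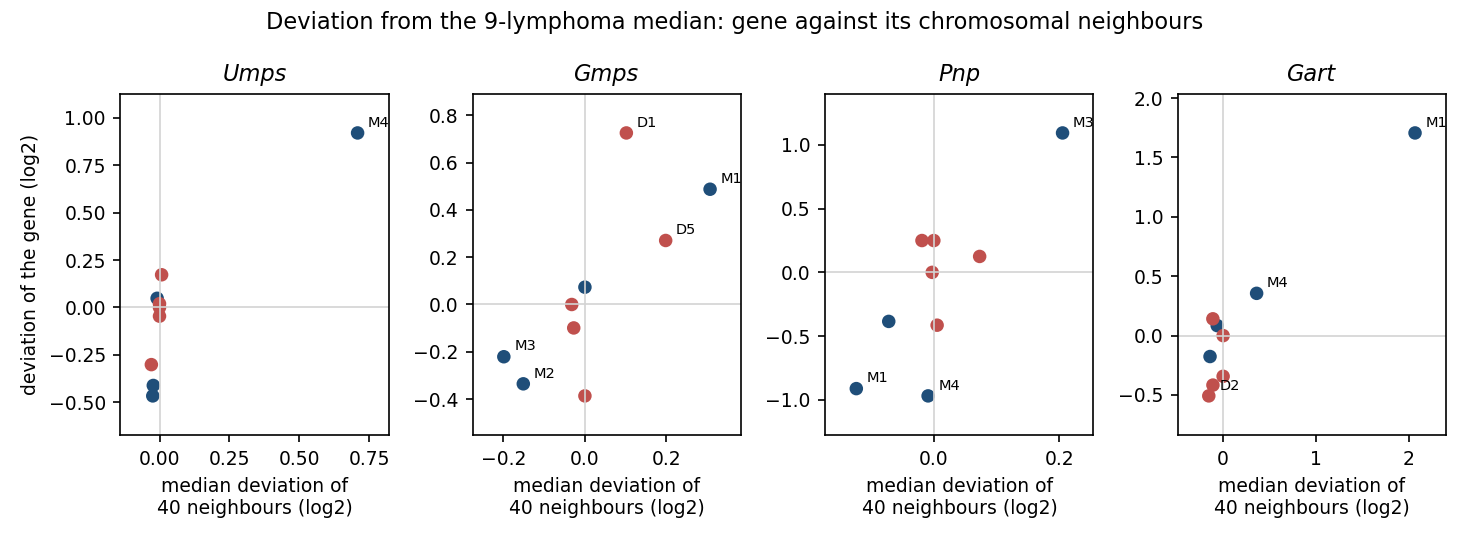
Deviation of 4 genes from their median over 9 lymphomas (vertical, log2) against the median deviation of the 40 tested genes nearest to each (horizontal, log2), blue and M for Eμ-Myc, red and D for double-transgenic, with the replicate number. Umps in M4 and Gart in M1 are high together with their neighbours.

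Among other genes of nucleotide and folate metabolism, 48 of 70 listed genes could be tested, 0 passed, and 30 were higher and 18 lower with a median difference of 0.06. An unadjusted limma p under 0.05 was seen for 5, or 10.4%, against 5.67% of all genes. In the direction of higher double-transgenic means, Psat1, the aminotransferase of serine synthesis, differed by 0.75 (95% interval 0.24 to 1.26), Dguok, the mitochondrial deoxyguanosine kinase, by 0.54 (0.07 to 1.00), Prpsap2, which associates with PRPP synthetase, by 0.42 (0.04 to 0.79) and Nme4, the mitochondrial diphosphate kinase, by 1.34 (0.12 to 2.56). Nme4 was lowest in Eμ-Myc replicate 4, and without it the difference was 0.81. Psat1 read 12.54, 12.56, 12.80 and 12.91 in Eμ-Myc and 13.72, 13.52, 12.74, 13.49 and 13.81 in double-transgenic lymphomas, so that 4 of 5 double-transgenic tumours exceeded every Eμ-Myc tumour. The limma adjusted p was 0.845 for each of these 4.

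In the other direction, Samhd1, which degrades deoxynucleotides, read 12.36, 11.72, 11.30 and 11.30 without and 11.05, 10.67, 11.38, 11.13 and 11.05 with the TTP transgene, a difference of -0.61 (-1.17 to -0.06; limma adjusted p = 0.845). Its highest tumour was Eμ-Myc replicate 1, the one with the lowest Rrm1, Rrm2, Tyms and Dut, and without it the difference was -0.38. Gart, which carries 3 activities of the path to IMP, read 13.79, 12.16, 11.90 and 12.43 without and 12.22, 11.57, 11.74, 12.08 and 11.66 with the TTP transgene. Eμ-Myc replicate 1 again stood apart, and 40 neighbours of Gart on chromosome 16 were 2.07 above their medians there, beside 1.71 for Gart itself. The difference of -0.72 (-1.55 to 0.11) was -0.31 without that tumour. Nt5c, a nucleotidase, differed by -0.23 (-0.60 to 0.14) and Mtrr, methionine synthase reductase, by -0.28 (-0.76 to 0.20), and the limma adjusted p of Gart, Nt5c and Mtrr was 0.860, 0.872 and 0.879.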

How the data were processed

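RNA of 9 lymphomas was measured on Affymetrix mouse arrays, 1 array per lymphoma. The authors deposited intensity values on a linear scale, 1.56 to 123104.7, for 45037 probe sets; GCRMA is named in the submitters' processing notes, and its version and settings are not given in the sources used here. Of the probe sets, 34945 list 1 gene, 932 several and 9160 none, and 34741 of those with 1 gene matched the RefSeq gene table. Values were taken to log2 with no pseudocount. Genes were represented by the probe set of highest mean, kept at log2 over 4 in at least 4 arrays, and tested with limma 3.58.1 (lmFit, eBayes, R 4.3.3), with Benjamini-Hochberg adjustment over 10172 genes. On simulated data of 10172 genes, a log2 change of 2 in 200 genes was recovered for 75%, with 10 unchanged genes called. The largest difference of a member was 1.02, so recovery of differences as small as those of the members was not simulated. Single values were tested by exact permutation over 126 splits and correlations over 362880 pairings (scipy 1.17.1), adjusted over 34 members for Myc and for the S phase mean, and over 9 pairs. Of 10 planned pairs, that with Impdh2 had no value. The number of arrays limits the precision, and nothing in the labels says whether the samples came from separate animals, so p-values measure the spread between these samples.

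All members are named. Described in full are those with an unadjusted limma p under 0.05 or groups that do not overlap, the most and least variable of each role, the pairs, and up to 4 other pathway genes in each direction with the smallest p. The members and lists were chosen with earlier results of these data known. Alternatives were other filters, the mean of probe sets, leaving out cross-hybridising (_x_at) probe sets, quantile normalisation, median centring, a pseudocount of 16, an intensity trend with a robust prior, a replicate block and each array left out. Protein sequences were not used here.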

Additional observations from a re-analysis of the deposited data

Results flagged for a closer look

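In 5 of 88 groups of values tested, those of 34 members and 10 other genes in each genotype, the highest or lowest lymphoma lay far from the others by Dixon's criterion, where chance gives about 1 in 20 groups, or 4.4. In the double-transgenic group, replicate 1 had the highest Ppat at 12.36 (the others 12.11 to 12.18), the highest Mthfd2 at 12.31 (the others 11.55 to 11.70) and the lowest Rrm2 at 13.18 (the others 13.52 to 13.64). Replicate 4 had the highest Dtymk at 13.27 (the others 13.13 to 13.17), and replicate 3 the highest Rrm2b at 11.04 (the others 8.58 to 9.11).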

How the results depend on the processing

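Across 9 other settings and 9 left-out arrays, 0 members were called, the lowest adjusted limma p of a member was 0.399, and 25 of 42 gene differences never changed sign. Genes called ranged from 0 to 8 with an array left out, 8 without Eμ-Myc replicate 3. The replicate numbers did not pair the samples (correlations of deviations -0.09, 0.09, -0.003 and 0.20), and the replicate block, which leaves double-transgenic replicate 5 without a partner, called 0 genes. Signs changed for small differences under the block (Cad -0.023, Dhodh 0.035, Umps 0.014, Adss 0.020, Hprt 0.069, Tk1 -0.016, Nme1 0.018, Shmt1 -0.0035), the mean of probe sets (Cad -0.0057, Dhodh 0.017, Umps 0.051, Ppat -0.031), quantile normalisation (Cad -0.0086, Nme1 0.019, Nme2 0.019) and median centring (Cad -0.0020). The cause was not tested. The correlation of Ppat and Paics was -0.25 with the mean of probe sets and -0.015 with genotype means subtracted, and that of Ada and Pnp -0.090 with genotype means subtracted, where 3 members passed with the S phase mean by the approximate p described above. The median of the AMP and GMP branches was 0.54 with the mean of probe sets. With an array left out, the differences that changed sign ranged as follows: Cad -0.094 to 0.13, Dhodh -0.10 to 0.097, Umps -0.22 to 0.25, Pfas -0.063 to 0.20, Atic -0.050 to 0.086, Adss -0.073 to 0.059, Gmps -0.055 to 0.26, Hprt -0.11 to 0.072, Aprt -0.15 to 0.089, Tk1 -0.12 to 0.35, Rrm2 -0.017 to 0.61, Rrm2b -0.88 to 0.014, Nme1 -0.072 to 0.078, Nme2 -0.039 to 0.033, Shmt1 -0.11 to 0.12 and Shmt2 -0.27 to 0.070. The median of the AMP and GMP branches then ran from -0.021 to 0.26, that of one-carbon genes from -0.22 to 0.070, that of pyrimidine synthesis from -0.15 to 0.026, that of the diphosphate kinases from -0.056 to 0.055, that of salvage from -0.021 to 0.089 and that of all members from -0.021 to 0.12. Differences that kept their sign but moved by over 1.5 times, besides those given with their genes, were Ctps (to -0.041), Prps2 (-0.38 to -0.064), Ppat (to 0.085), Adsl (0.070 to 0.23), Mthfd1 (-0.30 to -0.017), Nt5c (to -0.14) and Mtrr (to -0.15).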

Other observations

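Rrm2b is known as a p53-inducible gene, as is Cdkn1a, while Cdkn2a encodes ARF, an upstream activator of p53. Both were looked up after the values of Rrm2b had been seen, so what follows is a description. Cdkn1a read 5.49, 8.17, 7.06 and 8.51 in Eμ-Myc replicates 1 to 4 and 8.41, 11.20, 5.52, 8.62 and 8.33 in double-transgenic replicates 1 to 5. Cdkn2a read 12.24, 2.60, 6.06 and 4.46 and 2.62, 6.94, 12.32, 5.73 and 9.65. The pair of lymphomas with the highest Rrm2b, Eμ-Myc replicate 1 at 11.14 and double-transgenic replicate 3 at 11.04, had the highest Cdkn2a and the lowest Cdkn1a of the 9. Dck was also highest in them, at 14.19 and 14.69. Rrm2 was 11.91 in the first and 13.59 in the second, whereas Tk1 was alike, 11.02 and 11.07.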
